A study of Mus musculus with 6 samples.

Results

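The MYC, MAX and MXD network of transcription factors was followed in RAW264.7 cells, a transformed macrophage line from BALB/c mice, with and without the extract C2S. The 10 genes were taken by symbol: the activators Myc and Mlxip, the shared partners Max and Mlx, and the repressors Mxd1, Mxd3, Mxd4, Mxi1, Mnt and Mga. All 10 were found among the 52636 genes of each table, and all 10 were among the 11561 genes with enough reads to test. Total RNA was sequenced from 3 libraries of cells given 150 µg/ml C2S for 24 h and from 3 PM_control libraries without it (0 µg/ml). The labels spell out neither C2S nor PM, and nothing in them tells whether the replicates are independent cultures. Each p-value therefore covers only the variation among these libraries, which may be technical. The comparison asks which network transcripts differed with the extract, and no primary macrophages were included.

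MYC proteins bind DNA as pairs with MAX, mostly at E-boxes with the core CACGTG, and drive genes of growth, ribosome production and metabolism. MXD proteins, MXI1, MNT and MGA also pair with MAX at such sites and recruit repressors of transcription, so they compete with MYC. MLX pairs with MLXIP, known as MondoA, which responds to glucose-derived sugar phosphates, and also with some of the repressors. In macrophages Myc is known as an early gene of growth factor signalling, and MXD genes are known to rise as myeloid cells stop dividing.

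Library totals lay between 8594485 and 10665869 estimated reads, and a floor of 3 reads in a library corresponded to 0.281 to 0.349 CPM (reads scaled to library size, here with TMM factors). Of 10 macrophage markers, 9 had a mean of at least 1 TPM (a level scaled for transcript length and library size), with sums of 6943 to 7222 TPM with C2S and 6751 to 7065 TPM in the controls. These sums hide markers that moved apart. Cd14 was at 1092, 1041 and 958 TPM in the controls and at 625, 665 and 600 TPM with C2S. Itgam was at 77.6, 76.9 and 73.7 TPM in the controls and at 129, 120 and 110 TPM with C2S. Mertk, a clearance receptor, had 1 read in all. The markers Epcam, Cd3e, Tie1 and Pdgfra, which define epithelial, T, endothelial and fibroblast cells, were at 0 in all libraries. Summed levels of the 4 endothelial markers were 1.97 to 4.73 TPM with C2S and 0.48 to 0.53 TPM in the controls, mostly from Pecam1 with C2S. Of the B cell genes, Cd79a, a subunit of the B cell receptor, was at 0.12, 0.38 and 0 TPM in the controls and at 2.55, 1.15 and 1.46 TPM with C2S, without overlap, and Ms4a1 was at 0 throughout. The 4 markers each of fibroblasts, epithelial cells and T cells summed to at most 0.23 TPM in any library. The part of other cells in the results was not tested. In bulk RNA, fewer cells of a kind and less RNA per cell cannot be told apart.

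With C2S, the activator gene Myc fell, 4 of the 6 repressor genes rose, and the shared partner Max fell slightly. Mxd1 rose 11.5-fold, Mnt 3.15-fold, Mxd4 2.06-fold and Mxi1 1.44-fold by the fitted change, while Myc was 5.27-fold lower. The repressor Mga fell, the activator Mlxip rose slightly, and Mxd3 and Mlx did not pass the test. Of the 10 genes 5 rose and 3 fell, against a background in which 55.4% of all tested genes changed, 27.0% upward and 28.4% downward (edgeR's quasi-likelihood test, Benjamini-Hochberg adjusted p under 0.05 over all genes tested). Changes of at least 2-fold were called in 14.5% of all genes and in Myc, Mxd1, Mxd4 and Mnt here. The higher genes made up 48.8% of all calls, but 38.3% with library totals alone as the scaling and 35.9% with limma on log2(TPM + 1).

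**Figure D1:**
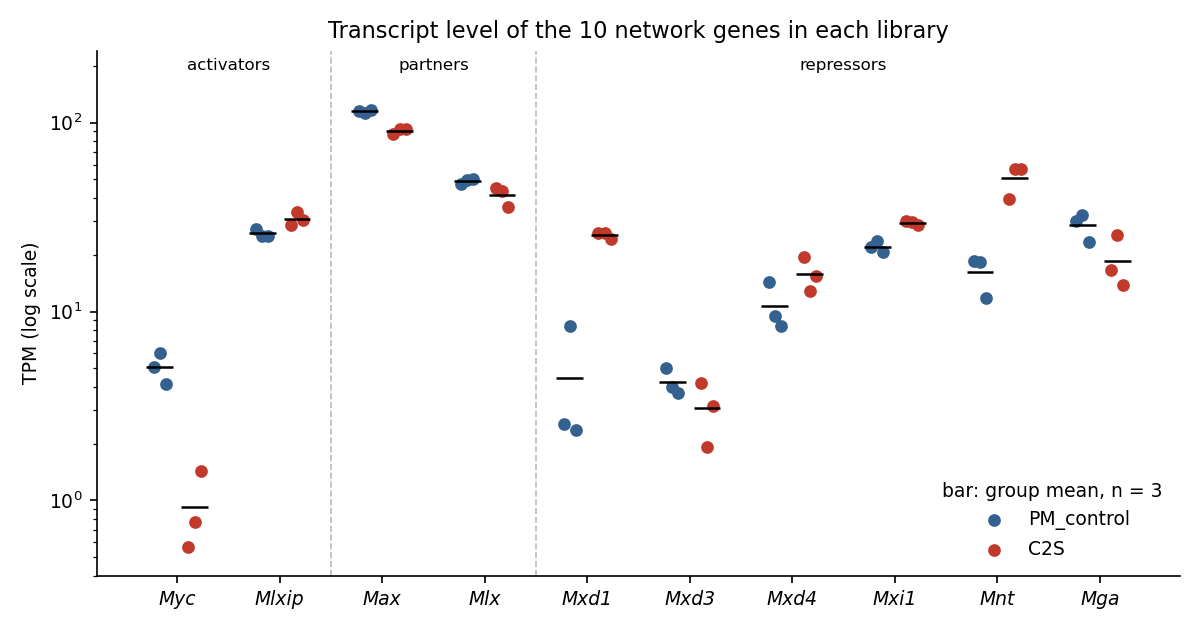
Deposited TPM (log axis) of each of the 10 genes in the 3 PM_control and the 3 C2S libraries, grouped by role, with bars at the group means. Myc sits at 4.16 to 6.05 TPM in the controls and at 0.57 to 1.43 TPM with C2S, and Mxd1 and Mnt lie higher with C2S in every library.

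Among the activators, Myc (ENSMUSG00000022346, chromosome 15, 61985391 to 61990374, 3 exons, no exon overlap with another gene) was already scarce in the controls. It had 60, 71 and 47 reads in the PM_control libraries and 7, 9 and 14 with C2S, or 5.06, 6.05 and 4.16 TPM against 0.57, 0.77 and 1.43 TPM. All 3 C2S libraries were below all 3 controls. Groups that do not overlap in CPM were common, at 61.1% of all tested genes. The mean was 5.87 ± 1.17 CPM in the controls and 1.12 ± 0.45 CPM with C2S (SD, n = 3 each, as for all values with ± CPM or TPM). The fitted log2 fold change was -2.40 with an SE of 0.33 (edgeR, adjusted p = 1.11e-05), and SEs follow the ± of all other log2 fold changes. Only 76 of the 11561 tested genes had a lower log2 fold change, although with so few reads the size is less certain than the direction.

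Mlxip (ENSMUSG00000038342, chromosome 5, 123394798 to 123457932, up to 17 exons) encodes MondoA, the MLX partner that drives Txnip and Arrdc4. It stood at 27.41, 25.19 and 25.08 TPM in the controls and at 28.80, 33.53 and 30.51 TPM with C2S. The groups did not overlap, but the gap was small (log2 fold change 0.31 ± 0.07; edgeR, adjusted p = 0.000811). The call was lost on log2(TPM + 1), where the adjusted p of limma was 0.0648 (range over all alternatives 0.000141 to 0.0649).

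The MYC family as a whole did not follow Myc, because Mycn carried nearly all of its transcripts in these cells. Mycn (ENSMUSG00000037169, chromosome 12, 12936093 to 12941914, no exon overlap), the MYC relative better known from neural tissue and embryos, is outside the 10 genes but pairs with MAX in the same way. It had 831.83, 811.97 and 794.26 TPM in the controls and 842.27, 807.85 and 845.57 TPM with C2S, with ranks between 183 and 193 among all genes of a library. Every library, with or without the extract, thus held Mycn at a level far above all 10 network genes. Mycn exceeded Myc 163 ± 28.4-fold in the controls and 1039 ± 443-fold with C2S in TPM. Myc made up 0.622 ± 0.11% of the summed Myc and Mycn level in the controls and 0.111 ± 0.0523% with C2S.

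In CPM the Mycn groups did not overlap, at 1277 ± 14.7 in the controls and 1402 ± 47.5 with C2S, but its log2 fold change, 0.14 ± 0.06, did not pass (edgeR, adjusted p = 0.0603). It passed as higher in 5 of 17 alternatives, among them the fit without C2S replicate 2 (edgeR, adjusted p = 0.0345), and the adjusted p ranged from 0.00927 with DESeq2 to 0.640 with limma on log2(TPM + 1). Summed over Myc and Mycn, the level was 818 ± 19.2 TPM in the controls and 833 ± 21.1 TPM with C2S, groups that overlap. The fall of Myc therefore hardly altered the sum. Bmyc, a relative without the DNA-binding domain of MYC, was at 93.58, 94.82 and 88.68 TPM in the controls and 51.37, 45.92 and 48.67 TPM with C2S (log2 fold change -0.81 ± 0.09; edgeR, adjusted p = 9.99e-07). Its exons overlap A230005M16Rik over 62.8% of their length on the opposite strand, so its value is uncertain. Mycl and Mycs had 0 reads in all libraries and Mlxipl, the gene of ChREBP, had 1 in all.

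**Figure D2:**
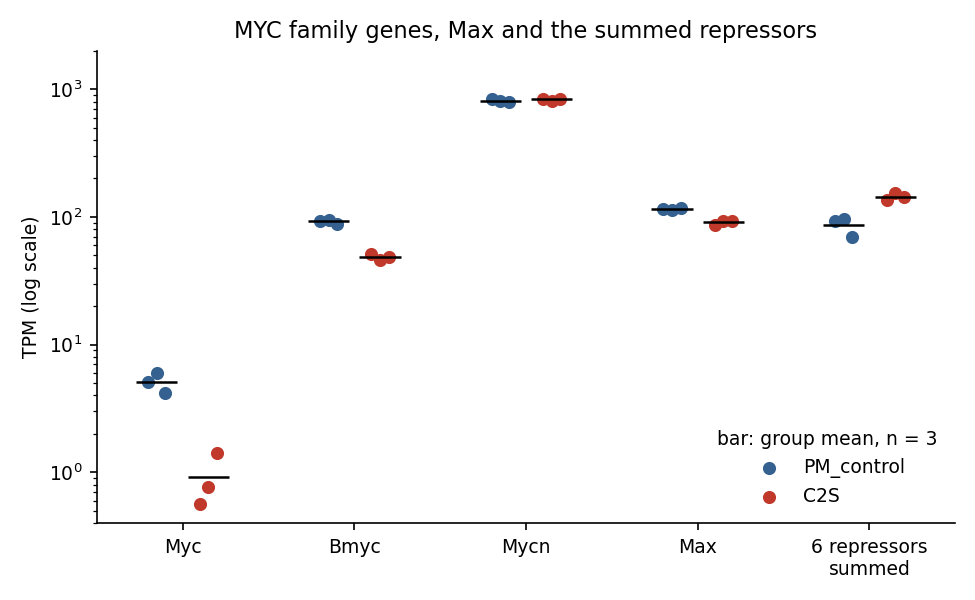
Deposited TPM (log axis) of Myc, Bmyc, Mycn, Max and the sum of the 6 repressors in each library, with bars at the group means. Mycn lies between 794.26 and 845.57 TPM in all 6 libraries, far above Myc, while the summed repressors rise from 86.3 to 144 TPM on average.

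Max, the obligate partner of MYC, MXD, MXI1, MNT and MGA, was the most abundant of the 10 genes in both groups. Max (ENSMUSG00000059436, chromosome 12, 76937269 to 76962201) was at 114.87, 112.66 and 116.51 TPM in the controls and at 86.87, 92.73 and 92.36 TPM with C2S. Every C2S library was lower than every control. The log2 fold change was -0.25 ± 0.07 (edgeR, adjusted p = 0.00405), and this call held in all 17 alternatives.

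Mlx (ENSMUSG00000017801, chromosome 11, 101087277 to 101092207), the partner of MondoA, was at 47.12, 49.91 and 50.30 TPM in the controls and 45.16, 43.27 and 35.87 TPM with C2S. The groups did not overlap, yet the fitted log2 fold change of -0.13 ± 0.09 did not pass (edgeR, adjusted p = 0.228). It passed with library totals alone (edgeR, adjusted p = 0.0454; range over all alternatives 0.0454 to 0.459). The exons of Mlx overlap those of Psmc3ip on the opposite strand over 19.3% of their length. Its value is uncertain, since no source used here states whether counting used strand.

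Mxd1, also known as MAD1, is the founding member of the MXD repressors and recruits the SIN3 corepressor to MAX sites. Mxd1 (ENSMUSG00000001156, chromosome 6, 86647042 to 86669161, no exon overlap) had 78, 71 and 57 reads in the controls and 828, 666 and 640 with C2S. These are 7.16, 7.18 and 5.98 CPM against 81.3, 80.1 and 72.5 CPM, so the groups were far apart and each was even within itself. The log2 fold change was 3.52 ± 0.11 (edgeR, adjusted p = 7.79e-14), and 164 of the tested genes had a higher one.

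In TPM the controls looked less even, because Mxd1 stood at 2.54, 8.42 and 2.35 TPM, against 26.16, 26.16 and 24.32 TPM with C2S. The high value belongs to PM_control replicate 2, where the deposited length of Mxd1, which weights its transcripts by their estimated abundance, was 1552 bases. It was 4614 and 4106 bases in the other two controls and 4448 to 4648 bases with C2S. The annotated transcripts of Mxd1 run from 418 to 4666 bases. The length of 1552 bases was estimated from only 71 reads. The ratio of mean TPM was 5.76, but 10.4 without PM_control replicate 2, and the limma fit on log2(TPM + 1) gave a log2 fold change of 2.46.

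Mnt, a broadly expressed MAX partner that antagonises MYC, rose next most. Mnt (ENSMUSG00000000282, chromosome 11, 74830920 to 74845725) was at 49.3, 36.2 and 33.2 CPM in the controls and at 121, 117 and 137 CPM with C2S. Its log2 fold change was 1.66 ± 0.11 (edgeR, adjusted p = 2.71e-09), and 478 tested genes had a higher one. In TPM it went from 18.62, 18.23 and 11.75 to 39.55, 57.10 and 56.53, which made it second to Max among the 10 genes with C2S, where it overlapped with Mlx.

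Mxd4, or MAD4, is an MXD repressor found in resting and differentiated cells. Mxd4 (ENSMUSG00000037235, chromosome 5, 34173883 to 34187720) was at 20.9, 18.4 and 13.7 CPM in the controls and at 39.0, 30.7 and 39.7 CPM with C2S (log2 fold change 1.04 ± 0.14; edgeR, adjusted p = 8.57e-06). Every C2S library exceeded every control in CPM. In TPM the groups overlapped, with 14.27, 9.42 and 8.43 against 19.33, 12.89 and 15.40 TPM, and the call was lost on the log2(TPM + 1) scale (adjusted p = 0.0801 with limma; 7.52e-17 to 0.0801 across the alternatives). The deposited length of Mxd4 was 2526, 3209 and 2721 bases in the controls and 3102, 3670 and 3886 bases with C2S, which lowers its TPM per read with the extract.

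Mxi1, also called MAD2, rose by the smallest step of the 4. Mxi1 (ENSMUSG00000025025, chromosome 19, 53310518 to 53375810) went from 21.86, 23.71 and 20.67 TPM to 30.21, 29.68 and 28.61 TPM, without overlap. Its log2 fold change was 0.53 ± 0.07 (edgeR, adjusted p = 1.36e-05), held in all 17 alternatives. Mxi1 was the steadiest repressor in length, at 5037 to 5040 bases in the controls and 5051 to 5081 bases with C2S. These values do not overlap between the groups, but they differ by only 23.5 bases on average. All exceed the 5036 bases of the longest Mxi1 transcript in the annotation used here, so the authors' Mxi1 transcripts differed in length.

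Mxd3, or MAD3, is the MXD gene known to be expressed in dividing cells, and it was rare here. Mxd3 (ENSMUSG00000021485, chromosome 13, 55325168 to 55329823) had 38, 29 and 25 reads in the controls and 32, 12 and 22 with C2S. The groups overlapped at 5.04, 4.01 and 3.71 against 4.17, 1.93 and 3.18 TPM, and a difference was not detectable at this depth (log2 fold change -0.34 ± 0.33; edgeR, adjusted p = 0.398).

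Mga, a very large protein with a T-box as well as a MAX-pairing domain, went the other way from the other called repressors. Mga (ENSMUSG00000033943, chromosome 2, 119897228 to 119969581, up to 25 exons) fell from 106, 87.1 and 84.9 CPM to 63.5, 65.9 and 49.7 CPM. All C2S libraries were lower in CPM, and the log2 fold change was -0.63 ± 0.11 (edgeR, adjusted p = 7.46e-05). In TPM the groups overlapped, with 30.08, 32.58 and 23.31 TPM in the controls against 16.60, 25.33 and 13.88 TPM, and the call was lost by a narrow margin on the log2(TPM + 1) scale (adjusted p = 0.0543 with limma; 1.00e-13 to 0.0543 across the alternatives). The overlap comes from C2S replicate 2, which had the shortest deposited length of Mga, 3988 bases, among lengths of 3988 to 5752 bases.

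**Figure D3:**
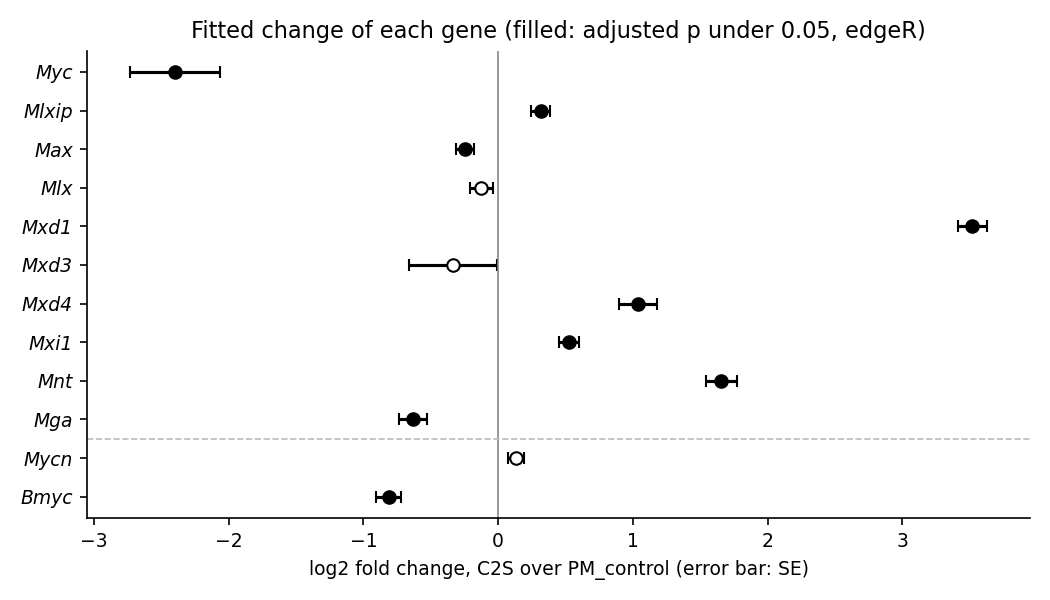
Fitted log2 fold change (C2S over PM_control) with its SE for the 10 genes and, below the dashed line, for Mycn and Bmyc; filled points have an edgeR adjusted p under 0.05. Mxd1 lies at 3.52 and Myc at -2.40, while Mycn is close to 0 and open.

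**Figure D4:**
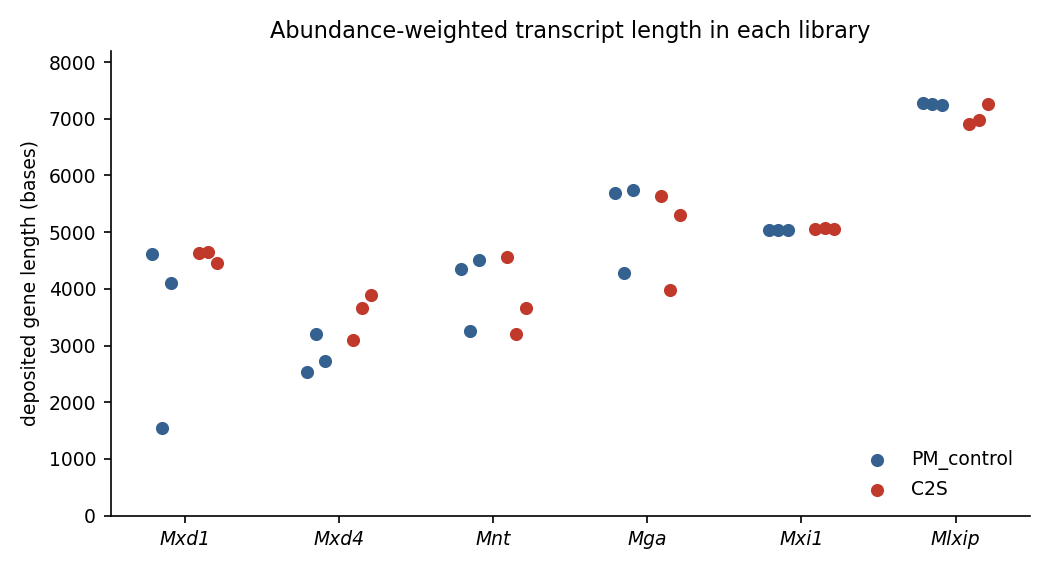
Deposited gene length in bases, which weights a gene's transcripts by abundance, for 6 of the genes in each library. Mxd1 is at 4106 to 4648 bases in every library but PM_control replicate 2, at 1552 bases, and Mxd4 tends to be longer with C2S.

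Set side by side in TPM, the balance of network transcripts shifted toward the repressors. The 6 repressors summed to 92.41, 96.37 and 70.22 TPM in the controls and to 136, 153 and 142 TPM with C2S. The groups did not overlap, and the ratio of means was 1.66 in TPM and 1.75 in CPM. Myc amounted to 5.48%, 6.28% and 5.92% of that sum in the controls and to 0.419%, 0.503% and 1.01% with C2S, a 9.16-fold lower mean share. Mlxip, the other activator, pairs with MLX and is left out of this share. Mlxip rose from 25.9 ± 1.31 to 30.9 ± 2.40 TPM, while Myc fell from 5.09 ± 0.945 to 0.923 ± 0.45 TPM. A share that held both activators would therefore fall by much less than 9.16-fold. Mxd1 was below Myc in PM_control replicates 1 and 3, with ratios of 0.502 and 0.565, and above it in replicate 2, at 1.39. The ratio of 1.39 rests on the short deposited length of Mxd1 in that library. With C2S, Mxd1 exceeded Myc 32.3 ± 14.5 times (n = 3). In reads, which are not scaled for length, the ratio was 1.3, 1.0 and 1.21 in the controls and 79.3 ± 36.6 with C2S.

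Counting Mycn with Myc changes the level and the size of this shift but not its direction. The summed Myc and Mycn level was 9.06, 8.49 and 11.4 times that of the 6 repressors in the controls and 6.20, 5.28 and 5.97 times with C2S. So MYC family transcripts outnumbered repressor transcripts in all 6 libraries, by less with the extract. The mean ratio was 1.66-fold lower with C2S, against 9.16-fold for Myc alone. Max exceeded the summed repressors in the controls, with ratios of 1.24, 1.17 and 1.66, and lay below them with C2S, at 0.639, 0.606 and 0.651. Max amounted to 12.7 ± 0.619% of the summed level of Myc, Mycn and the 6 repressors in the controls and to 9.29 ± 0.387% with C2S. No p is given for these sums, which were built from genes already tested, and transcript levels are not protein levels.

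The make-up of the repressor pool changed as well. Mga was the largest part in the controls, at 32.6%, 33.8% and 33.2% of the summed repressor TPM, and 12.2%, 16.5% and 9.78% with C2S. Mnt went from 20.1%, 18.9% and 16.7% to 29.1%, 37.3% and 39.8% and became the largest part. Mxd1 went from 2.75%, 8.74% and 3.35% to 19.2%, 17.1% and 17.1%, where the 8.74% again belongs to the library with the short deposited length. Mxi1, although its own level rose, went from 25.9 ± 3.1% to 20.6 ± 1.46% of the pool.

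**Figure D5:**
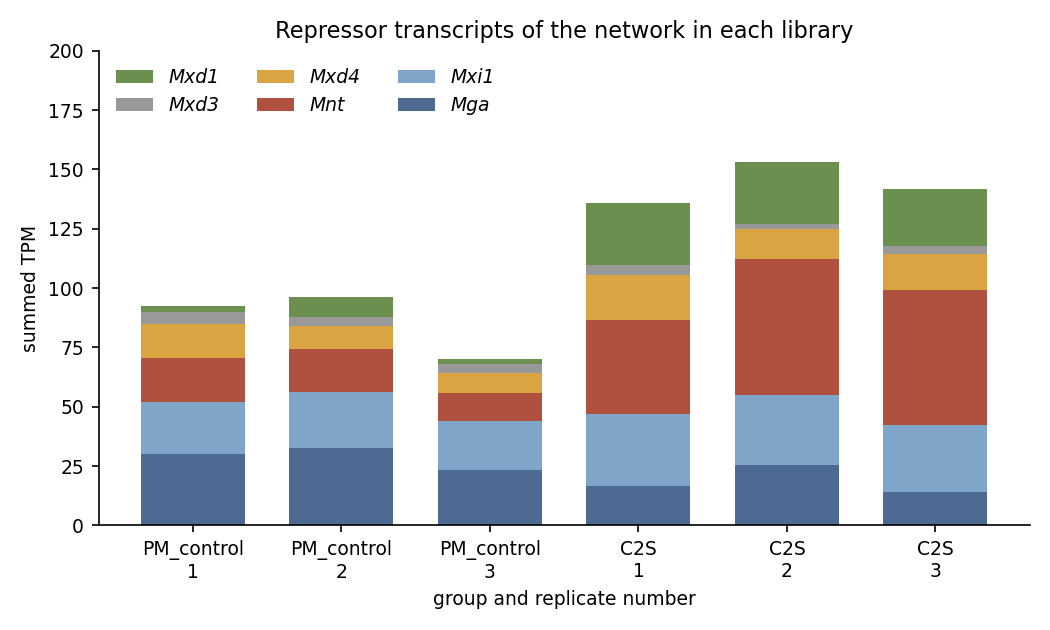
TPM of the 6 repressor genes stacked for each library, with the controls on the left and C2S on the right. The stacks reach 70.22 to 96.37 TPM in the controls and 136 to 153 TPM with C2S, with taller Mnt and Mxd1 segments and a shorter Mga segment with the extract.

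In order of mean TPM, the controls ran from Max and Mlx through Mga, Mlxip, Mxi1, Mnt and Mxd4 to Myc, Mxd1 and Mxd3. Neighbours overlapped for Mga and Mlxip, for Mnt and Mxd4, and among Myc, Mxd1 and Mxd3. With C2S the order ran from Max, Mnt, Mlx, Mlxip, Mxi1 and Mxd1 to Mga, Mxd4, Mxd3 and Myc. Neighbours overlapped there for Mnt and Mlx, for Mlxip and Mxi1, and along Mxd1, Mga and Mxd4. Myc was the lowest of the 10 with C2S, with no overlap with Mxd3.

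Promoter stretches are shown for the members that hold the E-box CACGTG, which the network binds, and then for the 2 most raised repressors. RefSeq windows (GRCm38.p6) from 250 bases before to 50 after a start were matched for 9 of the 10 genes, all but Myc. CACGTG, which reads the same on both strands, was in the windows of Max, Mxd4, Mnt and Mlx and in 7.15% of all 32851 windows. The windows of Mxd1 and Mlxip and the 3 windows of Mxi1, genes that also rose, held none. Neither did the windows of Mga, which fell, and Mxd3, which was not called. The 30 bases around each match, with CACGTG in capitals, are given 5′ to 3′ on the gene's strand.
Max, chr12:76962234-76962263, minus strand: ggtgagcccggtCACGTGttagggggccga
Mxd4, chr5:34187912-34187941, minus strand: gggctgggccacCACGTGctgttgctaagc
Mnt, chr11:74830789-74830818, plus strand: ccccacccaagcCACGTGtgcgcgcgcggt
Mlx, chr11:101087238-101087267, plus strand: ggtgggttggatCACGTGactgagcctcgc
The first base of the match lay at -3, -219, -123 and -40 from the start. These 4 genes moved differently: Mnt and Mxd4 rose, Max fell and Mlx was not called, and the letters alone say nothing of binding.

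The windows of the 2 most raised repressors differ in their motifs. Bases -250 to -11 of both are given with CACGTG, the CCAAT box (CCAAT or ATTGG) and the GC box (GGGCGG or CCGCCC) in capitals.
Mxd1, chr6:86669170-86669409, minus strand: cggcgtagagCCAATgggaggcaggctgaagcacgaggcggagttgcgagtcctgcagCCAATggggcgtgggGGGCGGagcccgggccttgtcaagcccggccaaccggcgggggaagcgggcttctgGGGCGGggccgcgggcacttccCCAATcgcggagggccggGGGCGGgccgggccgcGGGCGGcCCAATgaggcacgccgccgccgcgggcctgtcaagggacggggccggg
Mnt, chr11:74830674-74830913, plus strand: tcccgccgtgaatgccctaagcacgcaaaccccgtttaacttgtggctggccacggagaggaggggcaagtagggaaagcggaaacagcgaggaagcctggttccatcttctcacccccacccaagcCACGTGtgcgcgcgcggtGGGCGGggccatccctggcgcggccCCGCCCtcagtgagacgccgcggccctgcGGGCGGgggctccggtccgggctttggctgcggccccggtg
Mxd1 holds 4 CCAAT and 4 GC box matches and no CACGTG in this stretch, and Mnt holds 1 CACGTG, 3 GC box matches and no CCAAT. Over the full windows, CCAAT was in 37.4% and the GC box in 35.7% of all windows. A match is a description of the letters and not a measured binding site.

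Lists of genes around the network were described by counts. Their members were chosen from textbook knowledge, but with earlier results of these data known. Over all tested genes the median log2 fold change was -0.0021 and 55.4% were called, 27.0% higher and 28.4% lower. The counts of each list are to be read beside those shares. Of 16 coactivators of MYC, 6 rose and 3 fell (56.25% called, median 0.09). Paf1, of the elongation complex PAF1, rose from 95.7 ± 1.16 to 183 ± 10.1 CPM, and Ep400, a chromatin remodeller of the TIP60 complex, had a log2 fold change of 0.72 ± 0.08. Ccnt1 (0.52 ± 0.08), the cyclin of the elongation kinase P-TEFb, rose, whereas Cdk9 (-0.50 ± 0.08), its kinase subunit, fell. The reads of Ep400 were partly shared with other genes in 5 libraries, so its value is uncertain. The number that fell was 1 in place of 3 without C2S replicate 1, without PM_control replicate 2 and with DESeq2.

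Of 16 genes of the SIN3 corepressor, through which MXD proteins and MNT act, 6 rose and 5 fell (68.75% called, median 0.08). The scaffold genes moved apart, with Sin3a at -0.62 ± 0.07 and Sin3b at 0.63 ± 0.09 on the log2 scale. Sin3a went from 176 ± 16.9 to 114 ± 5.79 CPM and Sin3b from 50.4 ± 2.42 to 77.7 ± 9.74 CPM. Sin3a was not called on the log2(TPM + 1) scale (adjusted p = 0.131 with limma; 4.78e-18 to 0.131 across the alternatives). Rbbp4 (0.31 ± 0.05), a histone-binding subunit, and Arid4a (0.57 ± 0.11) rose, and Brms1l (-0.85 ± 0.14) and the deacetylase gene Hdac2 (-0.38 ± 0.08) fell. On log2(TPM + 1) 3 genes of this list rose and 3 fell, without Rbbp4 (limma, adjusted p = 0.302) and Arid4a (0.0533), and Hdac2 lost its call with the GC trend removed (edgeR, adjusted p = 0.0671). Sin3b was at 0.32 on the log2(TPM + 1) scale.

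MGA and MAX also sit in the Polycomb complex PRC1.6, and 5 of its 10 other genes fell while 1 rose (60% called, median -0.34). L3mbtl2, a scaffold of the complex, fell from 91.8 ± 3.65 to 55.7 ± 6.76 CPM, and Tfdp1 (-0.47 ± 0.06) and Cbx3 (-0.48 ± 0.07) fell as well, although Cbx3 was at -0.16 with the GC trend removed (edgeR, adjusted p = 0.0432). Rybp rose from 51.1 ± 0.839 to 148 ± 9.58 CPM (log2 fold change 1.53 ± 0.07; edgeR, adjusted p = 1.78e-11). Exons of L3mbtl2 overlap Chadl over 17.2% of their length, and reads of Tfdp1, Cbx3 and Rybp were partly shared with other genes, so these 4 values are uncertain. Pcgf6 (-0.66 ± 0.12), the subunit that defines this complex, and E2f6 (-0.50 ± 0.10), its DNA-binding partner, named here after their values were seen, have neither limit. Without C2S replicate 2 or PM_control replicate 3 a further gene rose, for 2 in all.

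Of 12 genes of MYC protein turnover and partners, 6 rose and 3 fell (75% called, median 0.17). Fbxw7, the ubiquitin ligase subunit that marks MYC and N-MYC for degradation, rose from 29.9 ± 2.98 to 56.7 ± 2.59 CPM (log2 fold change 0.92 ± 0.09; edgeR, adjusted p = 2.52e-07). Usp36 (0.64 ± 0.07), a deubiquitinase that stabilises MYC in the nucleolus, and Stub1 (0.27 ± 0.07) also rose, but Stub1 overlaps Jmjd8 over 42.3% of its exons and is uncertain. Aurka, a mitotic kinase that protects N-MYC from FBXW7, fell from 144 ± 7.81 to 70.0 ± 1.65 CPM, and Skp2 from 63.2 ± 7.4 to 34.9 ± 1.73 CPM. Cip2a (-0.52 ± 0.09) fell too, a call lost with the GC trend removed (edgeR, adjusted p = 0.109). On log2(TPM + 1) 3 genes of this list rose, and Stub1 was not among them (limma, adjusted p = 0.0679).

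Genes known to be activated by MYC did not move together. Of 39 such genes, 8 rose and 10 fell, and the 46.2% called was below the 55.4% of all genes (median -0.07). Rrs1 (-1.29 ± 0.06) and Ppan (-1.14 ± 0.06), which act in ribosome assembly, and Polr1b (-1.03 ± 0.10), a subunit of RNA polymerase I, fell. Odc1 (0.46 ± 0.06), the entry enzyme of polyamine synthesis, Hk2 (0.51 ± 0.07), a hexokinase, and Ccnd2, cyclin D2 (6.78 ± 1.13 to 15.7 ± 2.10 CPM), rose. Odc1 shared reads with other genes and is uncertain, and Ccnd2 was not called on log2(TPM + 1) (limma, adjusted p = 0.0855). The split depended on scaling, with 4 rising and 19 falling with library totals alone and 4 and 14 on log2(TPM + 1). Without PM_control replicate 1, 5 rose and 10 fell.

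Of 7 genes known to be repressed by MYC, 6 were tested, of which 4 rose and 2 fell (100% called, median 0.73). Ndrg1, a gene of hypoxia and differentiation, rose from 25.9 ± 1.34 to 246 ± 20.4 CPM. Cdkn1a, the cell cycle inhibitor p21, rose from 363 ± 5.58 to 694 ± 47.2 CPM, and Gadd45a from 0.878 ± 0.443 to 10.4 ± 1.29 CPM. These 3 genes are also known to respond to stress apart from MYC, and Gadd45a overlaps E230016M11Rik over 19.1% of its exons and is uncertain. Cebpa (-0.50 ± 0.10), a myeloid factor, and Ndrg2 (-0.22 ± 0.06) fell.

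Of 8 genes known as targets of MondoA or ChREBP, 7 were tested, of which 3 rose and 2 fell (71.4% called, median -0.04). The 2 best known MondoA targets moved apart in the edgeR fit, but Arrdc4 had few reads. It had 10, 9 and 14 reads in the controls and 35, 28 and 34 with C2S, and its groups overlapped in TPM. Txnip, which limits glucose uptake, fell from 234 ± 11.9 to 141 ± 6.18 CPM, and Arrdc4, its relative, rose from 1.10 ± 0.321 to 3.55 ± 0.261 CPM. Txnip overlaps Gm15441 over 19.4% of its exons and is uncertain. On log2(TPM + 1), 0 genes of this list rose, and Arrdc4 (limma, adjusted p = 0.0939), Fasn (0.0597) and Scd1 (0.298) lost their calls. In the edgeR fit, the lipid synthesis genes Fasn and Scd1 rose (log2 fold changes 0.29 ± 0.06 and 0.25 ± 0.07) and Elovl6 fell (-1.10 ± 0.10). Scd1 shared reads with other genes and is uncertain, and it was at 0.16 without C2S replicate 2.

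Of 10 other factors that bind CACGTG, 4 rose and 4 fell (80% called, median 0.10). Bhlhe40, a repressor of the circadian clock and of cytokine genes, rose from 9.97 ± 1.01 to 80.7 ± 4.52 CPM (log2 fold change 3.02 ± 0.10; edgeR, adjusted p = 2.30e-13). Srebf2 (0.47 ± 0.06) and Srebf1 (0.39 ± 0.06), of sterol and fatty acid synthesis, rose. Usf1 (-1.01 ± 0.12) and the lysosomal regulators Tfeb (-0.64 ± 0.13) and Mitf (-0.43 ± 0.10) fell. Usf1 shared reads in 1 library and is uncertain, and Mitf was at -0.28 with the GC trend removed. On log2(TPM + 1) 2 genes of this list rose, and Srebf1 was not called (limma, adjusted p = 0.182).

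The genes with the profile most like a member were found by the distance between centred log2 CPM over the 6 libraries. A prior count of 2 was added first, which narrows the change of genes with few reads, Myc included. Nearest to Myc were Prtg, Tmem26 and Xrcc2, at root mean square distances of 0.157, 0.180 and 0.180 on the log2 scale. Nearest to Mxd1 were Sesn2 (0.0749) and Plk3 (0.155). Sesn2, a stress-induced sestrin, went from 24.5 ± 2.71 to 264 ± 10.8 CPM, and Plk3, a stress-responsive kinase, from 16.1 ± 1.38 to 225 ± 11 CPM. Hspb1, a small heat shock protein, came next by this measure, but it had 0 control reads, so its control level was set by the prior count and its distance is not a measured likeness. It had 61 reads with C2S, at least 22.6-fold higher against a floor of 3 reads over the control group. Nearest to Mga were Invs, Tex10 and Oma1, at 0.0751, 0.0795 and 0.0795.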

How the data were processed

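The authors deposited 1 RSEM table per library. The series text names fastp for trimming, STAR with mm10 for alignment, RSEM for counting and edgeR for testing. Their versions, the annotation and the use of strand: not given in the sources used here. The deposited expected counts (estimated reads per gene), TPM and weighted lengths were used, and the deposited FPKM were not. Of 52636 genes, 52403 had a symbol, and coordinates are from GENCODE M21 (GRCm38). Its transcript lengths differ from the authors' annotation at least for Mxi1, so other transcripts and exon overlaps may differ too.

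Expected counts were rounded. Genes were kept by filterByExpr (minimum count 10, minimum total 15; 99.9% of counts) and tested with edgeR 4.0.16 (R 4.3.3) by the quasi-likelihood F test with TMM scaling, the group as the only term and a threshold of 0.05. The SE is the log2 fold change divided by the square root of F, and is approximate. The common biological coefficient of variation was 7.52%. Library pairs of a group had chi-square to degrees of freedom ratios of 4.30 to 6.46, so none was a duplicate. On data simulated for this comparison over 11395 genes, with 50 genes changed per fold size, the test recovered 74% at 1.5-fold and 92% at 2-fold, with 10 false calls. The simulation gave all genes the same variation and changed a far smaller share of genes than the 55.4% called here. Its rates may therefore not hold for the real libraries. Floors cover counting error only. Exon overlap was counted on either strand, an overlap of 10% or more makes a named gene uncertain, and reads count as shared where an expected count is not whole (tolerance 0.005).

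Named genes were all 10 members, 5 other network genes, from each list up to 3 called genes per direction by adjusted p whose groups do not overlap, and the 3 protein-coding genes nearest in profile to Myc, Mxd1 and Mga. Alternatives were RLE, upper quartile and library totals, DESeq2 1.42.0, limma 3.58.1 (voom, and log2 of TPM plus 1 or 0.1 keeping a mean TPM of 1 or more), no filter, 1 CPM in 3 libraries, the replicate block, each library left out and, chosen after the data were seen, removal of a lowess trend over GC content and counting Mycn with Myc. The members and lists were chosen with earlier results of these data known. One marker gene, and the sum over its list, is not reported here.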

Additional observations from a re-analysis of the deposited data

How the results depend on the processing

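All 10 genes kept their direction in all 17 alternatives, and Myc, Max, Mxd1, Mxi1 and Mnt also stayed called. The count of called members was 8, but 5 with limma on log2(TPM + 1) and 5 on log2(TPM + 0.1), with 3 rising in both. There Mxd4 (0.54 and 0.58; limma, adjusted p = 0.0801 and 0.0792), Mga (-0.63 and -0.65; 0.0543 and 0.0542) and Mlxip (0.25 and 0.25; 0.0648 and 0.0649) lost their calls. The count of all genes higher was then 1717 and 1705, against 3123. Mlx (-0.21; edgeR, adjusted p = 0.0454) gained a call with library totals alone. TPM divides by a length that RSEM estimated separately in each library, and the limma fits on TPM used neither TMM factors nor edgeR. What lost the calls of Mxd4, Mga and Mlxip was not tested. The median log2 fold change of all genes moved to -0.09 with library totals alone. It was -0.10 on log2(TPM + 0.1), 0.10 without a filter and 0.14 with DESeq2. The medians without a filter and with DESeq2 do not show an upward shift of the members. Without a filter, genes with fewer reads also enter the median, and all 10 members had a lower log2 fold change than in the main fit. With DESeq2 the log2 fold changes of the members hardly moved.

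Myc as a share of the 6 repressors was 0.643% with C2S and 5.89% in the controls in TPM, and 0.280% and 2.58% in CPM. With Mycn counted, chosen after the data were seen, it was 582% and 964%. Same-numbered libraries did not deviate together (correlations of -0.011, 0.069 and 0.034, with 3 of 6 libraries correlating best with their own number). With the replicate block 6489 genes and 8 members were called, no member's call changed, and Mycn passed (0.13; edgeR, adjusted p = 0.0444). Depth limits Myc and Mxd3, with under 100 reads per library, and the control level of Mxd1, at 78, 71 and 57 reads.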
